A study of Mus musculus with 17 samples.

Results

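To ask which genes of Kupffer cells (KCs), which reside in the sinusoids of the liver and are its own macrophages, depend on ID3 before any tumour is present, KCs sorted from tumour-free livers were compared between 2 genotypes. These were 5 of the 17 samples of the series, chosen by their genotype label, with 3 Id3f/f samples and 2 Clec4fCreId3f/f samples. Both groups carried Id3 flanked by loxP sites on both alleles and were untreated. The Clec4fCreId3f/f mice also carried a cre driven by Clec4f, a lectin gene of KCs, so that Id3 is cut in KCs and not in cells that never use Clec4f. The study counts mice as its replicates and describes the controls as littermates, while the labels give neither sex nor age nor a batch. RNA of each sample, with integrity numbers of 9.4 to 10 in the labels, was amplified as full-length cDNA (SMART-Seq v4). Of 25124 genes in the table, 12833 were tested, and 12429 of these lie on chromosomes 1 to 19. Values have the form of regularized log2 values, in which 1 unit is a doubling of the normalised read count and genes with few reads are drawn towards their mean, so that their differences are understated. Differences are Clec4fCreId3f/f minus Id3f/f, with the standard error of the fit, and a gene was called when its adjusted p was under 0.05.

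ID3 belongs to the Id proteins, which hold a helix-loop-helix domain but no DNA-binding region. They pair with E proteins such as E2A, the product of Tcf3, and keep them from binding E-box sequences, and they can also bind ternary complex factors such as ELK1. In the developing liver ID3 is needed for macrophage precursors to become KCs, and in the adult it remains one of the nuclear factors that set KCs apart from other macrophages. KCs take up blood-borne particles, dying cells and iron, sense danger through activating and inhibitory surface receptors, and release chemokines that draw lymphocytes.

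The 5 samples were alike, with Pearson's r across genes of 0.994 to 0.999 for every pair, and the first principal component, with 58.5% of the variance, set the genotypes apart. The second, with 24.2%, set Id3f/f replicate 3 apart from the other 4 samples, so that the main counts are also given without it. The genotypes also differed in sex-linked genes. Xist, the RNA made from the inactive X chromosome, was at 6.38, 6.33 and 6.36 in the Id3f/f samples and at 9.84 and 9.76 in the Clec4fCreId3f/f samples, and the Y-linked Ddx3y was at 9.46, 9.43 and 9.43 against about 7.0 in both. Another Y-linked gene, Eif2s3y, was at 8.44, 8.77 and 9.12 against 6.95 and 6.95. Sex and genotype therefore cannot be told apart in these samples, and the counts below are over autosomal genes. Timd4, the phosphatidylserine receptor that marks resident KCs, was at 14.92 to 15.00 in all samples. The study's gate for KCs takes cells positive for the proteins of Timd4 and Adgre1. Similar Timd4 values may therefore follow from the sort, and they cannot show whether KC identity was the same in both genotypes. The 27 KC identity genes listed made up 4.89% to 5.11% of the summed linear values in Id3f/f samples and 5.65% and 5.59% in Clec4fCreId3f/f samples. In these bulk samples, fewer cells of a type and less RNA per cell cannot be told apart.

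Id3 (chr4:136143822-136145392, plus strand, GRCm38) was at 12.58, 12.46 and 12.82 in the Id3f/f samples and at 9.83 and 9.82 in the Clec4fCreId3f/f samples. The groups did not overlap, which also held for 42% of all autosomal genes tested. Id3 fell by 2.80 ± 0.11 (SE), a 6.95-fold lower value (adjusted p = 1.4e-06). Id1, another Id protein, was at 11.52, 11.37 and 11.19 against 10.58 and 10.70 and fell by 0.72 ± 0.11 (adjusted p = 0.0084). Id2 (−0.22 ± 0.10, adjusted p = 0.22) and Id4 (−0.07 ± 0.08, adjusted p = 0.68) did not pass the test. Among the E proteins, Tcf3 was at 10.12, 10.50 and 10.21 against 10.83 and 10.86, and it rose by 0.57 ± 0.12 (adjusted p = 0.024). The other two did not pass, with −0.05 ± 0.15 for Tcf4 and 0.07 ± 0.09 for Tcf12. The ternary complex factors Elk3 (0.08 ± 0.14) and Elk4 (0.07 ± 0.06) and the X-linked Elk1 (−0.03 ± 0.10) did not pass either. Of the 9 autosomal genes of this list, 1 was called higher and 2 lower, with Id3, the gene that the cre targets, among the 2.

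**Figure D1:**
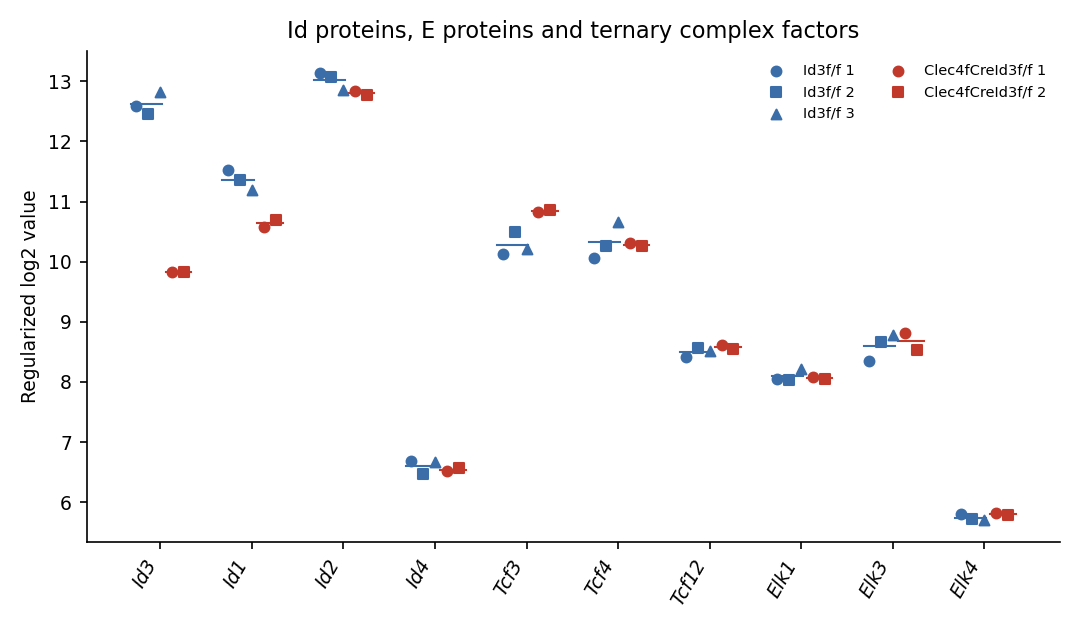
Regularized log2 values (vertical axis) of 10 genes (horizontal axis) in each sample, with 1 point per sample and a horizontal bar at each group's mean. The Clec4fCreId3f/f points lie below all Id3f/f points for Id3 and Id1 and above them for Tcf3.

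Across autosomal genes, 806 of 12429 were called (6.48%), of which 386 were higher (3.11%) and 420 lower (3.38%) in Clec4fCreId3f/f KCs. The groups overlapped for 0 of the 806, while they did not overlap for 42% of all autosomal genes tested. Without Id3f/f replicate 3, 1793 of 12424 were called (14.4%), with 842 higher (6.78%) and 951 lower (7.65%), and all 806 were among them in the same direction. Leaving out any 1 sample moved the count by more than 1.5 times, to 195 without Id3f/f replicate 1, 396 without replicate 2, 13 without Clec4fCreId3f/f replicate 1 and 15 without replicate 2. The genes called in both of the last cases were Id3, Clec4f, Ccl24, Scd2, Cd207, Ptgis, Fabp7, Il1rn, Ly6a and the pair H2-Q7 and H2-Q9. Of the 29 biological lists described below, none had more than 2 members called without either Clec4fCreId3f/f sample, and 0 to 16 members of each were called without Id3f/f replicate 1 or 2. The split by direction moved when each sample was centred on its median, to 319 higher and 536 lower. Most changes were small. The median was 0.48 for genes called higher and −0.45 for those called lower, and 473 of the 806 differed by less than 0.5. A difference of at least 1 was seen for 32 genes, 27 lower and 5 higher. The share called was larger at higher levels, from 0.483% of the 3108 genes with the lowest mean values to 16.6% of the 3107 with the highest.

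**Figure D2:**
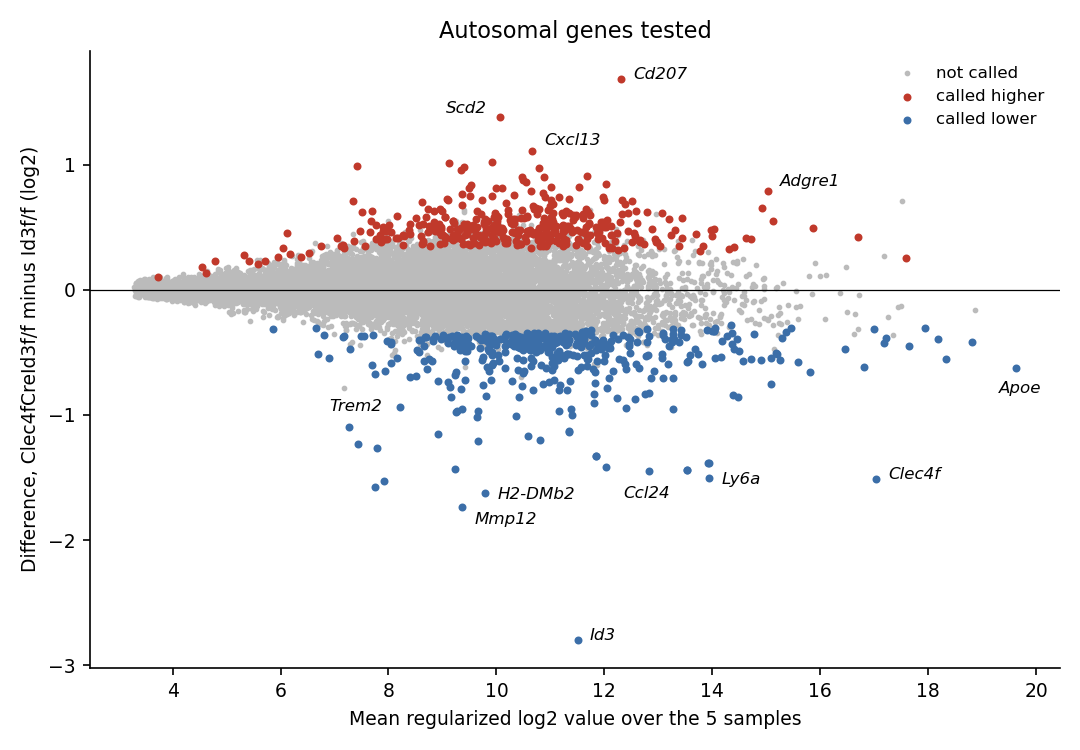
Difference between the genotypes (vertical axis, log2) against the mean value over the 5 samples (horizontal axis, regularized log2) for each autosomal gene tested. Called genes are in colour, Id3 lies lowest at −2.80, and the cloud narrows to the left, where genes with few reads are drawn towards their mean.

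The largest rises were of Cd207, Scd2 and Cxcl13. Cd207, which encodes the lectin langerin, was at 11.41, 11.51 and 11.98 in the Id3f/f samples and at 13.35 and 13.28 in the Clec4fCreId3f/f samples (1.68 ± 0.15, adjusted p = 7.1e-04). Scd2, a stearoyl-CoA desaturase, was at 9.59, 9.56 and 9.39 against 10.90 and 10.88 (1.38 ± 0.10, adjusted p = 1.5e-04). Cxcl13, a chemokine for B cells, was at 9.92 and 9.87 in the first and second Id3f/f samples, at 10.83 in the third, and at 11.31 and 11.32 in the Clec4fCreId3f/f samples (1.11 ± 0.24, adjusted p = 0.029). Tmc3 (1.02), the transglutaminase gene Tgm1 (1.01), Myo1e (0.99), a myosin, and Btbd11 (0.98) followed. Prex1 (0.97), an activator of Rac, the ferroxidase gene Cp (0.96) and Asb2 (0.91) completed the 10 largest rises.

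Apart from Id3, the falls were led by Mmp12, a macrophage elastase, at 10.59, 10.52 and 9.08 against 8.28 and 8.37 (−1.74 ± 0.37, adjusted p = 0.026). H2-DMb2 (−1.62) and the MHC-region genes Gm10499 (−1.57) and Gm11127 (−1.53) came next. Clec4f itself, whose promoter drives the cre, was at 17.59, 17.62 and 17.71 against 16.13 and 16.11 (−1.52 ± 0.06, adjusted p = 1.8e-06), and the part of the cre allele in this fall was not tested. Ly6a, a surface protein raised by interferons, was at 14.78, 14.60 and 14.23 against 13.01 and 13.06 (−1.50 ± 0.14). Ccl24, an eosinophil chemokine, was at 13.50, 13.31 and 13.39 against 11.94 and 11.96 (−1.45 ± 0.09, adjusted p = 4e-05). The haemoglobin genes Hba-a1 and Hba-a2, near-identical copies whose reads cannot be told apart, both fell by 1.44 ± 0.34.

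The third Id3f/f sample lay between the others and the Clec4fCreId3f/f samples for many of these genes. Of the 32 genes with a difference of at least 1, it had gone more than 50% of the way to the Clec4fCreId3f/f mean for 17, among them Mmp12 (66.3% of the way), H2-DMb2 (61.4%), Hba-a1 (69.4%) and Cxcl13 (66.0%). For Id3, Clec4f, Ccl24, Scd2 and Ptgis it lay with the other Id3f/f samples. Over all 806 genes called, its median position was −1.65% of the way. Values that split the 3 control samples in this manner carry the larger standard errors of the list, and without that sample the difference of Mmp12 became −2.23. In a fit without a trend of variance on level, the calls of Mmp12, H2-DMb2, Gm10499, Gm11127, Hba-a1, Hba-a2, Cxcl13 and Asb2 were lost.

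**Figure D3:**
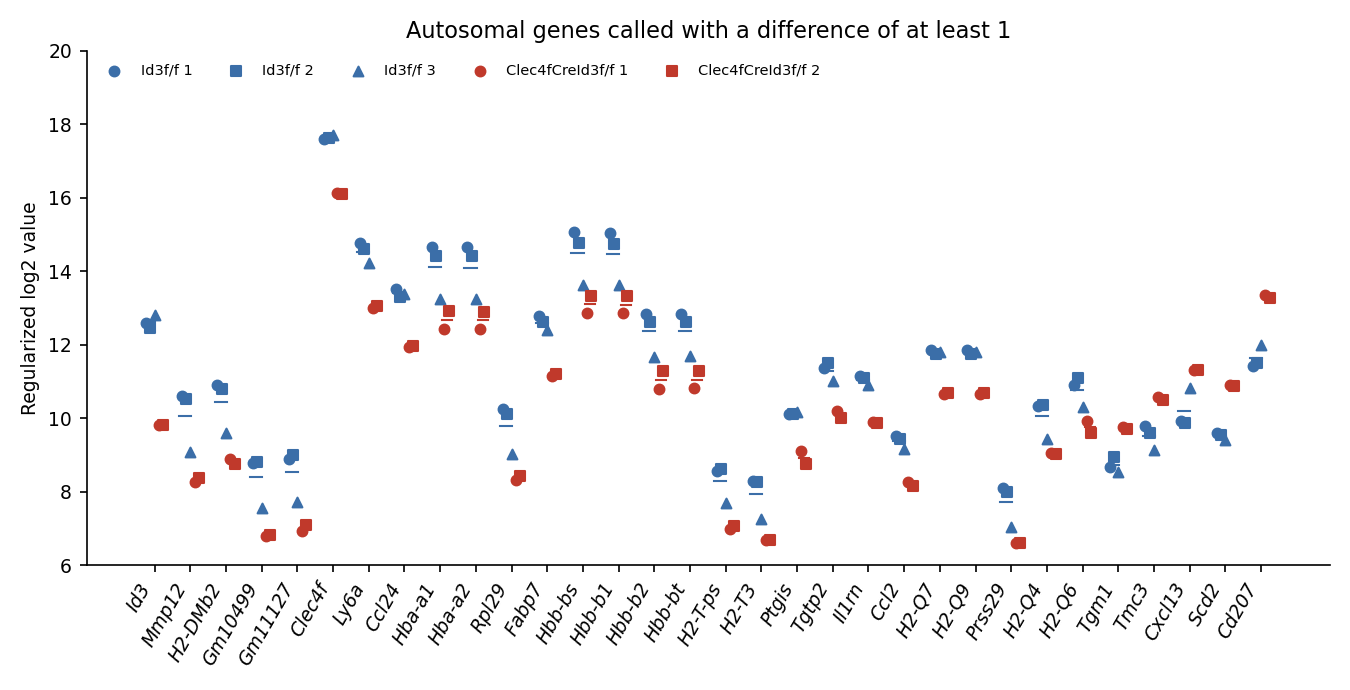
Regularized log2 values (vertical axis) of the 32 autosomal genes called with a difference of at least 1 (horizontal axis, ordered from the largest fall to the largest rise), with 1 point per sample and a bar at each group's mean. Triangles, which mark Id3f/f replicate 3, lie near the Clec4fCreId3f/f points for Mmp12, the haemoglobin genes and most MHC genes, and with the other Id3f/f points for Id3, Clec4f and Ccl24.

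Among the 29 biological lists, interferon-stimulated genes had the largest share of members called lower. Of 35 genes, 20 fell, 0 rose and 15 did not pass, with a median of −0.47 against 0.0018 for all autosomal genes tested. The share called was 57.1%, against 6.48% of all autosomal genes tested. The 35 genes made up 0.502%, 0.520% and 0.530% of the summed linear values in the Id3f/f samples and 0.385% and 0.381% in the Clec4fCreId3f/f samples. Oasl2, a 2′-5′ oligoadenylate synthetase-like protein, was at 11.37, 11.57 and 11.73 against 10.52 and 10.65 (−0.97 ± 0.12, adjusted p = 0.0031). Irgm1, a GTPase of phagosome and autophagy control, was at 12.29, 12.39 and 12.38 against 11.54 and 11.59 (−0.78 ± 0.08, adjusted p = 0.0017). Bst2, or tetherin, which holds enveloped viruses at the cell surface, was at 13.30, 13.13 and 13.03 against 12.33 and 12.33 (−0.83 ± 0.09, adjusted p = 0.0027). The ubiquitin-like modifier Isg15 was at 10.16, 9.91 and 10.10 against 9.25 and 9.33 (−0.77 ± 0.10, adjusted p = 0.0049). In each of these 4 genes the 2 groups stood clear of each other, and replicate 3 of the controls lay with the other controls. The groups stood apart for all 806 genes called and for 42% of all autosomal genes tested. The transcription factor Irf7 (−0.47) also fell, whereas Stat2 (−0.11, adjusted p = 0.51) and Irf9 (−0.04, adjusted p = 0.83) did not pass. Mx1, Ifit1 and Gbp2 were among the 15 members that did not pass. At an unadjusted p under 0.05, 23 members were lower and 0 higher by limma. Without Id3f/f replicate 3, 23 members were called lower, and without either Clec4fCreId3f/f sample 0 were called, although 22 members were lower at an unadjusted p under 0.05 in both cases.

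**Figure D4:**
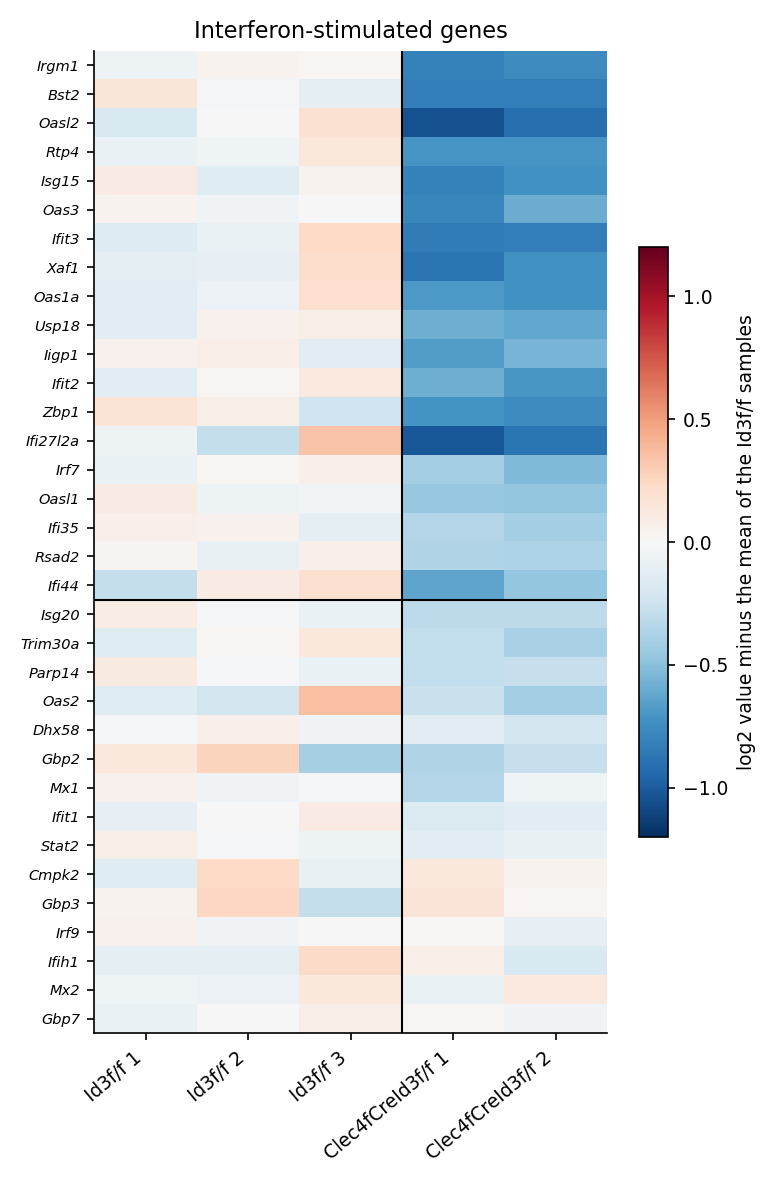
Value of each of 34 interferon-stimulated genes (rows, ordered by adjusted p) in each sample (columns) minus the mean of the Id3f/f samples, on the regularized log2 scale, with blue for lower and red for higher. The 19 genes above the horizontal line were called lower, and both Clec4fCreId3f/f columns are blue for all of them.

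The 250 bases before the start sites of these genes were searched on both strands for GAAA, any 2 bases and GAAA again, the core to which interferon regulatory factors bind. The 3 sequences below are from genes called lower. They come from RefSeq's promoters on GRCm38 and are given 5′ to 3′ on the strand of the gene, ending at the base before the start site, with every match in capitals, where matches that overlap run on. In Isg15 the first match begins 78 bases before the start site, in Irgm1 30 bases and in Bst2 130 bases.
Isg15 (chr4:156200819-156201068, minus strand): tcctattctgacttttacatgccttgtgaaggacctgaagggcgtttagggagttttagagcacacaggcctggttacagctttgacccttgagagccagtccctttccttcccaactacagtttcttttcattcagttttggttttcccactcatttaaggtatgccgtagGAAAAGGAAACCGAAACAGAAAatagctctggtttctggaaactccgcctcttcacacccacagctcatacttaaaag
Irgm1 (chr11:48871421-48871670, minus strand): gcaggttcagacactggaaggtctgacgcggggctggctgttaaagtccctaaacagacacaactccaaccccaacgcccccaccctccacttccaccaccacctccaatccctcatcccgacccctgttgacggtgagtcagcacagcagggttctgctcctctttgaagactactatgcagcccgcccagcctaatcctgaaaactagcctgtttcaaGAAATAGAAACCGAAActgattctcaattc
Bst2 (chr8:71537473-71537722, minus strand): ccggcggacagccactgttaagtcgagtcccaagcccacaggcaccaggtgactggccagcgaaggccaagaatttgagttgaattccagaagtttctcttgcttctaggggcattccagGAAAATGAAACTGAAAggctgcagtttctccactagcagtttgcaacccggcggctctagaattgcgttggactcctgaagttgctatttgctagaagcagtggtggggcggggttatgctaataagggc
A promoter was found for 14 of the 20 interferon-stimulated genes called lower, with a match in 7 of 15 windows (46.7%), and for 10 of the 15 not called, with a match in 6 of 15 windows (40%). Among all autosomal genes called lower, 10.9% of 396 windows held these letters, against 2.10% of 429 windows of genes called higher and 2.92% of 12393 windows of all autosomal genes tested. These shares describe letters only. This motif was chosen after the values were seen.

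The letters that E proteins bind were also counted in the same windows. An E-box, which was either CAGCTG or the form CAGGTG on either of the strands, stood in 25.4% of windows of genes called higher, 21.5% of those called lower and 25.1% of all. The ETS core CCGGAAG, searched on both strands, to which ternary complex factors bind, stood in 10.3%, 12.4% and 13.4%. For illustration, a gene that fell and a gene that rose each held 1 E-box in these windows, in capitals, 72 bases before the start site in Trem2 and 91 bases before it in Cxcl13.
Trem2 (chr17:48346151-48346400, plus strand): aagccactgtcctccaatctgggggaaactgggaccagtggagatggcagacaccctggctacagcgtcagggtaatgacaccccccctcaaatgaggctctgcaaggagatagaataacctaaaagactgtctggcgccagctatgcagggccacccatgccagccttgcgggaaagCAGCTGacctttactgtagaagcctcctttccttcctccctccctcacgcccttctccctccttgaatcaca
Cxcl13 (chr5:95956689-95956938, plus strand): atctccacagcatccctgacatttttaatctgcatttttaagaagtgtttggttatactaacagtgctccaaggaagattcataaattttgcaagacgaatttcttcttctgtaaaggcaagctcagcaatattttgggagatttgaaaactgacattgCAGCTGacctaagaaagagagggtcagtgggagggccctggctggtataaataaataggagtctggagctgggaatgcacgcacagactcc

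Among activating receptors and their adaptors, most of those called were lower. Of 28 tested, 9 fell and 1 rose (35.7% called), with a median of −0.25. Over all autosomal genes tested 3.38% were called lower and 3.11% higher. Among the 3107 with the highest mean values 16.6% were called in either direction. The 9 that fell include the paralogs Pilrb1 and Pilrb2, between which shared reads may have been split. Trem2, a receptor for lipids and dying cells, was at 8.63, 8.54 and 8.59 against 7.60 and 7.70 (−0.94 ± 0.09, adjusted p = 0.0010). Clec7a, which encodes the beta-glucan receptor dectin-1, was at 13.37, 13.51 and 13.22 against 12.70 and 12.62 (−0.70 ± 0.10, adjusted p = 0.0058). Tyrobp, or DAP12, the adaptor through which TREM2 signals, was at 15.49, 15.29 and 15.39 against 14.82 and 14.96 (−0.50 ± 0.08, adjusted p = 0.012). In each of these 3 genes every control lay above both Clec4fCreId3f/f samples. The groups stood apart for all 806 genes called and for 42% of all autosomal genes tested. The Fc receptor gene Fcgr4 (−0.39) and the shared gamma chain Fcer1g (−0.31) fell as well, and Itgb2, the beta chain of the complement receptor integrins, rose by 0.57 ± 0.08 (adjusted p = 0.0062). Lrp1 (0.27 ± 0.11, adjusted p = 0.16) and Syk (0.24, adjusted p = 0.19) did not pass. Without Id3f/f replicate 3, 13 members were called lower and 1 higher. Without 1 of the other samples, 0 to 4 members were called lower, with 4 without Id3f/f replicate 1 or 2, 0 without Clec4fCreId3f/f replicate 1 and 1 without replicate 2. With a curve on transcript length removed from each sample, a setting added after the data were seen, 6 members were called lower, and Fcgr4, Hcst and Fcer1g were no longer called.

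Inhibitory receptors and their phosphatases were split. Of 21 tested, 28.6% were called, against 6.48% of all autosomal genes tested. Of these, 4 rose and 2 fell, with a median of −0.03 over the list, and without Id3f/f replicate 3 these counts were 8 and 5. They were 2 and 0 without Id3f/f replicate 1, and the same without replicate 2. The phosphatases Ptpn6 (SHP-1), at 13.76, 13.86 and 13.71 against 14.27 and 14.24 (0.48 ± 0.08, adjusted p = 0.012), and Inpp5d (SHIP-1, 0.52 ± 0.12, adjusted p = 0.034) rose. So did the sialic acid receptor gene Siglece (0.44 ± 0.07) and the lectin gene Clec4a1 (0.44 ± 0.09). Sirpa, the receptor of the CD47 signal, was at 13.80, 13.87 and 13.72 against 14.16 and 14.04. The groups stood apart, as they did for 42% of all autosomal genes tested. The difference of 0.30 ± 0.08 did not pass the test (adjusted p = 0.057). Without Id3f/f replicate 3 the same difference was 0.27 (adjusted p = 0.018), which passed it, in a fit that called 1793 autosomal genes against 806 with all samples. Without Id3f/f replicate 1 or replicate 2 Sirpa did not pass. Siglecg was at 3.76 to 3.85 in all 5 samples (0.07 ± 0.03, adjusted p = 0.17). Clec12a (−0.40) and Fcgr2b (−0.73), the inhibitory Fc receptor, fell. Fcgr2b is also a gene of sinusoidal endothelium.

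Most chemokine genes that were called were lower in Clec4fCreId3f/f KCs. Of 13 CC ligands tested, 5 fell and 0 rose (median −0.17), and of 13 CXC ligands 4 fell and 1 rose (median −0.11). In both lists 38.5% were called, against 6.48% of all autosomal genes tested. With a curve on transcript length removed from each sample, as described below, the medians were −0.04 and −0.08. The monocyte chemokine Ccl2 was at 9.51, 9.43 and 9.17 against 8.28 and 8.17 (−1.15 ± 0.12, adjusted p = 0.0015), and its neighbour Ccl7 fell by 0.65 ± 0.09 (adjusted p = 0.0049). Ccl6 was at 15.82, 15.74 and 15.88 against 15.22 and 15.24 (−0.58 ± 0.07, adjusted p = 0.0031). Among other CC ligands, Ccl4 was at 8.24, 8.03 and 7.77 against 7.41 and 7.27 (−0.67 ± 0.13, adjusted p = 0.020), Ccl3 at 7.36, 7.28 and 7.33 against 7.07 and 7.05 (−0.27 ± 0.08, adjusted p = 0.078), and Ccl5 at 8.71, 8.50 and 8.49 against 8.38 and 8.43 (−0.16 ± 0.10, adjusted p = 0.40). Of these 3, the groups stood apart for all, as they did for 42% of all autosomal genes tested, and the fall passed the test for Ccl4. Cxcl10, a chemokine induced by interferon that draws T and NK cells, was at 10.12, 10.15 and 9.85 against 9.04 and 9.10 (−0.97 ± 0.11, adjusted p = 0.0027). Cxcl16 fell by 0.55 ± 0.08 (adjusted p = 0.0062) and Pf4 by 0.73 ± 0.10 (adjusted p = 0.0049). Pf4 is shared with platelets, whose other markers are given below. Cxcl13 was the member that rose.

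Of 15 cytokine genes tested, 5 fell and 0 rose (median −0.22), a share of 33.3% against 6.48% of all autosomal genes tested. Il18, which with IL-12 activates NK cells, was at 12.09, 12.03 and 12.23 against 11.35 and 11.39 (−0.75 ± 0.09, adjusted p = 0.0033). Il1rn, the antagonist of IL-1, was at 11.15, 11.10 and 10.90 against 9.90 and 9.86 (−1.17 ± 0.10, adjusted p = 6.8e-04), and Il1b fell by 0.64 ± 0.09 (adjusted p = 0.0062). Il15 was at 10.01, 10.05 and 10.13 against 9.77 and 9.70, a difference of −0.33 ± 0.09 that did not pass (adjusted p = 0.064). Il12b lay at 4.32 to 4.62 in all samples, where differences are drawn to 0 (−0.10 ± 0.07, adjusted p = 0.46), and Il12a lay below the level tested, at −1.88 in each sample. Myc (−0.08 ± 0.10, adjusted p = 0.67) and Hes1 (−0.17 ± 0.16, adjusted p = 0.58) did not pass the test.

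**Figure D5:**
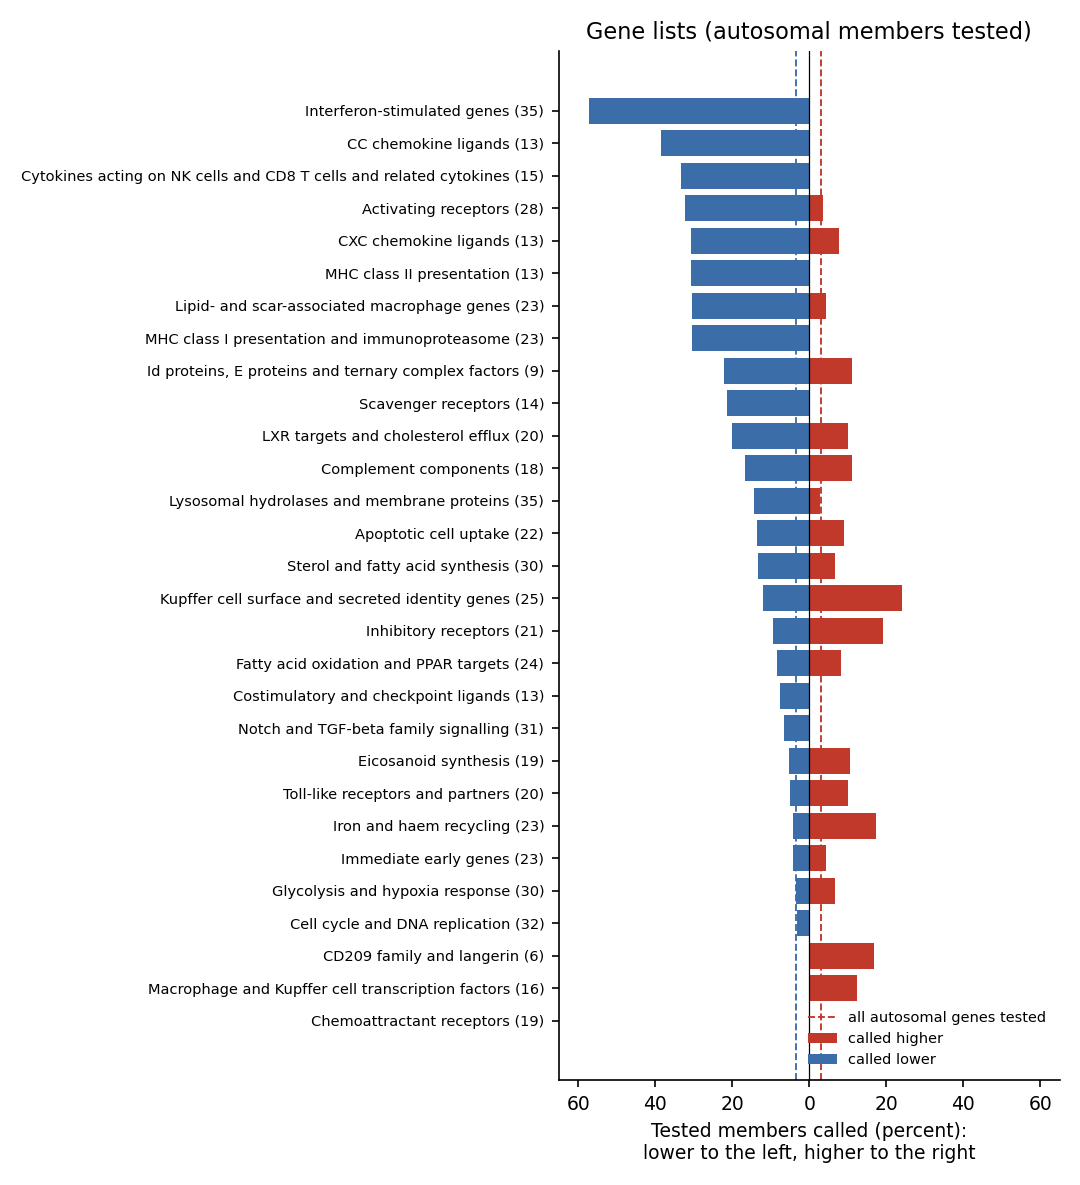
Percent of the autosomal members tested of each of 29 gene lists (number tested in brackets) called lower (blue, to the left) or higher (red, to the right) in Clec4fCreId3f/f KCs. Dashed lines mark the shares of all autosomal genes tested, 3.38% lower and 3.11% higher, and interferon-stimulated genes have the longest bar, 20 of 35 lower.

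Among antigen presentation genes, all those called with the 5 samples were lower, and the counts moved with Id3f/f replicate 3. Of 23 genes of MHC class I presentation and the immunoproteasome, 7 fell and 0 rose (median −0.26). This was a share of 30.4%, against 6.48% of all autosomal genes tested. Without that replicate 13 were called lower and 1 higher, which was H2-K1. In fits without Id3f/f replicate 1 or replicate 2, the counts were 3 lower and 0 higher. Psmb9, an immunoproteasome subunit, was at 13.05, 12.94 and 12.73 against 11.98 and 12.08 (−0.88 ± 0.10, adjusted p = 0.0031), and B2m, the light chain of class I, was at 17.86, 17.74 and 17.85 against 17.35 and 17.39 (−0.45 ± 0.06, adjusted p = 0.0055). H2-Q7, a class Ib gene near-identical to H2-Q9, was at 11.86, 11.75 and 11.81 against 10.66 and 10.68 (−1.13 ± 0.09, adjusted p = 2.3e-04). The classical H2-K1 (0.11) and H2-D1 (−0.14) did not pass, while without Id3f/f replicate 3 H2-K1 was called higher (0.20, adjusted p = 0.014) and H2-D1 lower (−0.13, adjusted p = 0.028). Of 13 genes of MHC class II presentation, 4 fell and 0 rose (median −0.23, 30.8% called), namely H2-DMa (−0.51), H2-DMb1 (−0.60), H2-DMb2 (−1.62) and the protease gene Ctss (−0.31). Without Id3f/f replicate 3, 10 of the 13 were called lower and 0 higher, against 1 lower without replicate 1 and 2 lower without replicate 2. H2-Ab1, a class II chain, was at 17.58, 17.53 and 16.91 against 17.15 and 17.08, so that the third control lay below the Clec4fCreId3f/f samples, and the difference of −0.22 ± 0.17 did not pass (adjusted p = 0.48). Without that control it was −0.44 (adjusted p = 1.5e-05), which passed.

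Many of these genes share the MHC region (chr17:33996012-37274485, GRCm38, from H2-K1 to H2-M3). There 18 of 119 genes tested were called (15.1%), all lower, against 36 of 537 (22 higher and 14 lower, 6.70%) on the rest of chromosome 17. A further 25 genes tested on this chromosome had no position and are in neither count, and 2 of them were called, both lower, with H2-Q9 as one. Without Id3f/f replicate 3, 39 of the 119 were called (32.8%), 35 lower and 4 higher, against 13.8% on the rest of the chromosome. Without Id3f/f replicate 1 or 2 the shares in the region were 4.2% and 5.04%, with 1 gene higher in both cases. On the rest of the chromosome they were then 1.49% and 2.98%. For 14 of these 18 the third control had gone more than 25% of the way to the Clec4fCreId3f/f mean, and the median was 42.3%, while H2-Q7 and H2-T24 stayed with the other controls. On the other autosomes, 3.25% (chromosome 18) to 7.73% (chromosome 12) of genes tested were called.

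KC identity genes moved in both directions. Of 25 autosomal genes tested, 6 rose and 3 fell (36% called), with a median of 0.21. Over all autosomal genes tested 6.48% were called, and among the 3107 with the highest mean values 16.6%. Cd207 (1.68) was among those that rose. Clec4f (−1.52), whose promoter drives the cre, was among those that fell. Without Id3f/f replicate 3, 12 were called higher and 5 lower. These counts were 4 and 1 without Id3f/f replicate 1, and 4 and 2 without replicate 2. Adgre1, which encodes a macrophage adhesion receptor, was at 14.58, 14.73 and 14.82 against 15.53 and 15.47 (0.79 ± 0.08, adjusted p = 0.0017). Its protein and that of Timd4 are among the markers of the study's gate for KCs, and the part of the sort in their values was not tested. Csf1r, the receptor of the macrophage growth factor CSF1, was at 15.55, 15.79 and 15.67 against 16.18 and 16.15 (0.50 ± 0.08, adjusted p = 0.010). The iron exporter gene Slc40a1 rose by 0.42 ± 0.08 (adjusted p = 0.016). Folr2, a folate receptor, was at 14.86, 14.79 and 15.18 against 14.39 and 14.39 (−0.55 ± 0.11, adjusted p = 0.022), and Clec1b fell by 0.32 ± 0.08 (adjusted p = 0.047). Vsig4 (−0.15, adjusted p = 0.46), Timd4 (0.01, adjusted p = 0.97) and Marco (0.71 ± 0.19, adjusted p = 0.058) did not pass, and Marco in the third control was at 16.73 against 17.50 and 17.49 in the others. Without that control Marco was called higher. Of 16 transcription factors of macrophages and KCs, 2 rose and 0 fell (median 0.0072), and one that rose was Cebpa (0.45 ± 0.09, adjusted p = 0.024). The other 14 did not pass, and without Id3f/f replicate 3 the counts were 5 higher and 1 lower. In fits without Id3f/f replicate 1 or replicate 2, 0 of the 16 were called.

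Clec4f and Cd207 lie side by side on chromosome 6, 26.7 kb apart between their starts. Of the 20 genes tested on each side of Clec4f, 2 were called, Cd207 (chr6:83671207-83677857) higher and Dguok lower (−0.39), a share of 5%. Of the 20 on each side of Id3, 7 were called (17.5%). These were the 3 complement genes C1qa (−0.42), C1qb (−0.40) and C1qc (−0.31), Tmem50a (−0.39), Maco1 (0.44), Ece1 (0.54) and Pink1 (0.33). C1qb, a chain of the first complement component and 736 kb from Id3, was at 18.41, 18.30 and 18.34 against 17.95 and 17.95 (−0.40 ± 0.06, adjusted p = 0.0064). The part of the altered alleles in the values of their neighbours was not tested.

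Some genes of lipid handling and the lysosome were called. The share called was 30% for LXR targets and cholesterol efflux genes and 34.8% for genes of lipid- and scar-associated macrophages. It was 21.7% for iron and haem recycling and 6.48% over all autosomal genes tested. Apoe, the lipoprotein that carries cholesterol out of macrophages, was at 19.88, 19.80 and 19.93 against 19.25 and 19.24 (−0.62 ± 0.05, adjusted p = 6.8e-04), and Apoc1 fell by 0.84 ± 0.12 (adjusted p = 0.0062). Among 20 LXR targets and cholesterol efflux genes, 2 rose and 4 fell (5 and 6 without Id3f/f replicate 3), with Scd2 and the exporter gene Abcg1 (0.56 ± 0.10, adjusted p = 0.017) as those that rose. Of 23 genes of lipid- and scar-associated macrophages, 7 fell and 1 rose (median −0.33), with Trem2, Ms4a7 (−0.64) and Cd9 (−0.60) lower and the lipoprotein lipase gene Lpl higher (0.55 ± 0.09, adjusted p = 0.014). Of 35 lysosomal genes, 5 fell and 1 rose (17.1% called, median −0.10), and without Id3f/f replicate 3, 11 were called lower and 5 higher. That share was close to the 16.6% called among the 3107 autosomal genes with the highest mean values. The cathepsin gene Ctsd was at 17.09, 17.13 and 16.94 against 16.47 and 16.40 (−0.62 ± 0.07, adjusted p = 0.0029), and Ctsb (−0.55 ± 0.06, adjusted p = 0.0015) and Cd68 (−0.56 ± 0.07, adjusted p = 0.0035) fell as well. Of 23 genes of iron and haem recycling, 4 rose and 1 fell (5 and 4 without that replicate). The iron regulatory protein gene Aco1 rose by 0.60 ± 0.10 (adjusted p = 0.014) and the ferritin light chain gene Ftl1 fell by 0.41 ± 0.06 (adjusted p = 0.0055).

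In the other lists 0% (chemoattractant receptors) to 27.8% (complement genes) of the members tested were called. Over all autosomal genes tested the share was 6.48%, and among the 3107 with the highest mean values it was 16.6%. Of the counts in this paragraph those that moved by more than 1.5 times without Id3f/f replicate 3 are given at its end. Of 22 genes of apoptotic cell uptake, 2 rose, with Mertk at 12.05, 12.13 and 12.04 against 12.61 and 12.62 (0.54 ± 0.08, adjusted p = 0.0075), and 3 fell, which were the C1q genes. Of 18 complement genes 2 rose, among them the decay-accelerating factor Cd55 (0.74 ± 0.08, adjusted p = 0.0024), and the same 3 fell. Of 20 Toll-like receptor genes and partners, 2 rose, with Irak3, a brake on this pathway, at 9.27, 9.32 and 8.97 against 10.07 and 9.97 (0.83 ± 0.12, adjusted p = 0.0062), and 1 fell. Of 30 sterol and fatty acid synthesis genes 2 rose and 4 fell, of 24 fatty acid oxidation genes 2 rose and 2 fell, and of 30 glycolysis and hypoxia genes 2 rose and 1 fell. Of 14 scavenger receptors 3 fell, of 6 genes of the CD209 family and langerin 1 rose, and of 19 eicosanoid genes 2 rose and 1 fell. One each of 23 immediate early genes rose (Nr4a1, 0.81 ± 0.11, adjusted p = 0.0050) and fell (Klf6, −0.40). Of 32 cell cycle genes 1 fell (Ccnd1, −0.43), and of 13 costimulatory and checkpoint ligands 1 fell (Lgals9, −0.52). Of 31 Notch and TGF-beta genes 2 fell, which were Id1 and Id3, the gene that the cre targets. Of 19 chemoattractant receptors, among them C5ar1 (−0.31, adjusted p = 0.089) and Fpr1 (−0.18, adjusted p = 0.30), 0 were called by limma, 6 had an unadjusted p under 0.05, and 5 were called without Id3f/f replicate 3. Without that replicate 4 genes of apoptotic cell uptake, 4 complement genes, 4 of sterol and fatty acid synthesis, 4 of fatty acid oxidation, 4 scavenger receptors, 3 of the CD209 family and langerin, 2 immediate early genes, 3 cell cycle genes and 2 Notch and TGF-beta genes were called higher. Called lower then were 2 Toll-like receptor genes, 4 glycolysis and hypoxia genes, 2 immediate early genes, 3 cell cycle genes and 2 costimulatory and checkpoint ligands. Without Id3f/f replicate 1 the shares called in the lists of this paragraph were 0% to 22.2%. Then 1 sterol and fatty acid synthesis gene and 0 glycolysis or eicosanoid genes were called. Without replicate 2 the shares were 0% to 33.3%.

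Some markers of other cells stood at high values, with Alb at 12.9 to 13.6 and Hbb-bs at 12.9 to 15.1 over the samples. Some markers differed between samples. Of 9 autosomal red cell markers tested 4 were called lower, and the 13 markers in the table summed to 0.400%, 0.339% and 0.159% of the linear values in the Id3f/f samples and to 0.0996% and 0.137% in the Clec4fCreId3f/f samples. Id3f/f replicate 3 had gone 69.4% of the way to the Clec4fCreId3f/f mean for Hba-a1 and 70.5% for Hbb-bs. With the length curve removed, 1 of the 9 was called lower. Hepatocyte markers summed to 0.385%, 0.380% and 0.504% against 0.433% and 0.480%, and 4 of 25 were called higher, with Mat1a at 11.53, 11.71 and 11.85 against 12.35 and 12.73 (0.85 ± 0.13, adjusted p = 0.0088), while Alb did not pass (0.32 ± 0.15, adjusted p = 0.24). Of 8 male-biased hepatocyte genes 0 were called by limma, with 2 at an unadjusted p under 0.05, and of 12 female-biased ones 2 were called higher. Sinusoidal endothelial markers, 1 higher and 3 lower of 20, summed to 0.0791% to 0.106% against 0.0883% and 0.0884%. T cell (0 of 9 called), B cell (0 of 10), plasma cell (0 of 5), stellate (0 of 14), cholangiocyte (0 of 6) and basophil and mast cell markers (0 of 2) did not pass by limma, with 0, 1, 3, 1, 2 and 1 at an unadjusted p under 0.05. For NK cells (Klrk1 of 12 markers), neutrophils (Mmp9 of 11), conventional dendritic cells (H2-DMb2 of 16), plasmacytoid dendritic cells (Bst2 of 5) and platelets (Pf4 of 10) 1 marker was called lower, while Ppbp, another platelet gene, was at 5.97 to 6.23 in all samples. Of 12 monocyte markers, Plac8 (−0.95 ± 0.10, adjusted p = 0.0015) and Msrb1 were called lower and Nr4a1 higher. The part of these cells in the differences above was not tested.

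Differences between the genotypes also went with transcript length. Genes called lower had a median length of 1441 bases and genes called higher 3764 bases, against 3026 for all autosomal genes tested. Of the 2932 genes with the shortest transcripts 9.07% were called lower and 0.58% higher, and of the 2922 with the longest 0.582% and 3.76%, with median differences of −0.10 and 0.04. Samples of the same genotype differed as well. For the shortest transcripts, the median was −0.05 for Id3f/f replicate 2 minus 1 and −0.04 for 3 minus 1. It was 0.02 for Clec4fCreId3f/f replicate 2 minus 1. With the length curve removed from each sample, 715 of 11697 genes were called (6.11%), of which 406 were called higher (3.47%) and 309 lower (2.64%). Of the main calls, 529 of the 783 called genes with a known length were called in the same direction. The interferon-stimulated genes lost the call of Ifi35 and gained that of Trim30a, with 20 lower and a median of −0.46. Among CC chemokines, 4 were then called lower and 1 higher, and among class I presentation genes 7 lower. Of the genes named above, the calls of C1qc, Ccl4, Clec1b, Ctss, Dguok, Folr2, Hba-a1, Hba-a2 and Tmem50a were lost as well, and Marco was called higher. The part of length in the differences between the genotypes was not tested.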

How the data were processed

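RNA-seq of 5 KC samples was analysed. Per the submitters' processing notes, the authors aligned reads to mm10 with STAR 2.7.10a and counted them with HTSeq, and DESeq2 is named as well. The deposited table holds 1 column per sample. Its columns are headed TPM, but the deposited values are log2 values with low genes drawn to their mean, as DESeq2's regularized log transformation gives, which was read from the values and is not stated for this table. Counts were therefore not available for a count test and the depth of each library is unknown. The summed linear values were lower in both Clec4fCreId3f/f samples than in the Id3f/f samples.

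Genes with a linear value of at least 10 in at least 2 samples were tested with limma 3.58.1 in R 4.3.3 (moderated fit with a mean-variance trend, no block, 3 against 2 samples), and p-values were adjusted over all 12833 genes by Benjamini-Hochberg. The script was tested on simulated data. The labels do not say whether samples came from separate mice, while the study counts mice as replicates, and p-values measure the spread between these samples. The table of genes holds 8447 that are at 0 in every sample. Gene positions were those of GENCODE M21 and RefSeq on GRCm38, and 24693 of the 25124 symbols matched RefSeq. Length was that of the longest protein-coding transcript, and promoters were RefSeq's on GRCm38.p6. Of 12429 autosomal genes tested, 9775 had a promoter.

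The comparison, the lists and the tests were chosen with earlier results of these data known. Genes named were the Id and E protein list, the 10 largest called rises and falls, genes the study names for this comparison, up to 3 called members per list and direction, called neighbours of Clec4f and Id3, the 2 highest genes of each marker list, and Xist, Ddx3y and Eif2s3y. Fabp7, Fcer1g, Fcgr4, Gbp2, H2-Ab1, H2-D1, H2-K1, H2-Q9, H2-T24, Hcst, Ifi35, Ifit1, Inpp5d, Irf7, Irf9, Isg15, Marco, Mat1a, Msrb1, Mx1, Pilrb1, Pilrb2, Ptgis, Stat2, Syk, Timd4, Trim30a and Vsig4 were named after their values were seen. Alternatives were other filters, scalings and variance fits, a replicate block, autosomal genes alone, leaving out each sample, and, chosen after seeing the data, removal of a curve on transcript length. The tumour tables of the series were not used here, and a few items are not reported here.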

Additional observations from a re-analysis of the deposited data

How the results depend on the processing

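Id3 was called under every alternative run, with −2.67 (length curve removed) to −2.88, and with 1 sample left out at a time −2.70 to −2.88. Leaving out 1 sample gave 13 to 1793 genes called, 2 to 842 higher and 11 to 951 lower. The interferon-stimulated genes called lower then numbered 0 to 23 and the activating receptors called lower 0 to 13. Where 1 Clec4fCreId3f/f sample is left, it is assumed to vary like the Id3f/f samples. Without a filter on low values, 460 genes were called, 224 higher and 236 lower, with 4 activating receptors lower. Quantile normalization left 5 activating receptors lower, and in all 396 genes higher and 362 lower. Centring on the median gave 319 higher and 536 lower, with the median of all autosomal genes at −0.03. The replicate block gave 2025 genes, 1002 higher and 1023 lower. It leaves Id3f/f replicate 3 alone in its block and out of the comparison. The numbers do not pair the samples (r of deviations −0.07 and −0.10 for the same number).

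Of 103 genes named and called, 14 were not called under quantile normalization, namely C1qa, C1qb, Clec12a, Clec1b, Ctsb, Ctss, Fcer1g, Ftl1, Hba-a1, Hba-a2, Pilrb1, Pilrb2, Tmem50a and Apoe, of which Apoe has the highest value in every sample and is set equal by construction, and 13 of 100 were not called with the length curve removed. Without a variance trend 13 were not called. Without Clec4fCreId3f/f replicate 1 or 2, 88 and 87 were not called. Genes that turned direction had not been called in the main comparison. With the replicate block these were Elk1 (0.033), Hes1 (0.0048), Ppbp (0.020) and Tcf4 (0.12). With the length curve removed they were Ccl5 (0.12), Elk4 (−0.0013) and Ppbp (0.11), under quantile normalization H2-Ab1 (0.0038), H2-D1 (0.069) and Vsig4 (0.039), and on centring Timd4 (−0.022). With 1 sample left out at a time, the range was −0.065 to 0.033 for Elk1, −0.063 to 0.22 for Elk3, −0.28 to 0.0048 for Hes1, −0.10 to 0.016 for Irf9, −0.11 to 0.020 for Ppbp, −0.18 to 0.12 for Tcf4 and −0.029 to 0.040 for Timd4. The causes were not tested. The depth behind these values is unknown, and genes with few reads are drawn towards no difference.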

Other observations

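Ribosomal proteins and respiratory chain subunits, chosen after the data were seen, lay on 1 side of 0 more than they passed the test. Of 76 genes for cytoplasmic ribosomal proteins, 74 had a value below 0, with a median of −0.31, while 7 were called lower and 0 higher by limma. Of 68 genes for respiratory chain subunits, 60 lay below 0, with a median of −0.29, and 9 were called lower and 0 higher. Their median transcript lengths were 926 and 838 bases, against 3026 for all autosomal genes tested.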
